A study of Rattus norvegicus with 11 samples.

Results

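Diabetic rats were compared with non-diabetic rats after Roux-en-Y gastric bypass (RYGB), on 5 of the 11 arrays of the series, chosen by the group named in each sample's title. Of these, 3 arrays were Control+RYGB and 2 were DM+RYGB. All animals were Sprague Dawley (SD) rats. DM stands for type 1 diabetes induced with streptozotocin (STZ), which kills pancreatic beta cells, and the labels name no such treatment for the controls. After 4 weeks the rats of both groups had RYGB, which leads food from a small stomach pouch past the upper small intestine, and the renal cortex was taken 4 weeks after surgery. The 6 other arrays, Control+Sham (3) and DM+Sham (3), came from rats with sham surgery on the same schedule. They entered the common error estimate and served for comparison. Age, sex and the number of rats behind each RNA were not given in the sources used here, so p-values measure the spread between these samples, which may be technical. Whether glucose fell after surgery is likewise not given.

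The renal cortex is made mostly of proximal tubules, with glomeruli and the distal nephron between them. The proximal tubule takes back filtered glucose, amino acids, phosphate and bicarbonate, secretes organic anions and drugs, burns fatty acids and makes glucose and active vitamin D. The distal convoluted tubule, the principal cells and the intercalated cells of the collecting duct then adjust sodium, potassium, calcium, water and acid. In diabetes with little insulin more glucose is filtered, and the tubule is exposed to ketones and osmotic diuresis. NADPH, which feeds glutathione and lipid synthesis, and AMPK, a kinase that senses low energy, are often studied in the diabetic kidney. Circadian clock genes also cycle in this tissue.

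A level is given throughout as the log2 of the background-subtracted signal minus the 75th percentile of the array, so that 0 marks a bright gene and each step of 1 a doubling. A change is the mean of DM+RYGB minus the mean of Control+RYGB on that scale, with its standard error (SE). Levels of different genes are not compared, since probes differ in binding. Control+RYGB 2 and 3 differed by less than the noise of repeated spots among bright probes and were averaged, so a change rests on 2 Control+RYGB samples and 2 DM+RYGB samples.

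Several array measures moved with diabetes in these rats. The 75th percentile signal was 1614 and 1606 in DM+RYGB against 3022 to 3468 in Control+RYGB. All Control+RYGB arrays lay at slide position 2, DM+RYGB 1 at position 3 and DM+RYGB 2 at position 4, so position and group cannot be told apart. Control+RYGB 1 and DM+RYGB 1 were scanned on one day, and Control+RYGB 2, Control+RYGB 3 and DM+RYGB 2 on another. The 2 DM+RYGB arrays also differed from each other. The summed signal of 28 heart muscle genes, in units of the 75th percentile, was 705 in DM+RYGB 2, 10.6 in DM+RYGB 1 and 5.94 to 6.90 in Control+RYGB. Myh6, the atrial and adult rodent heart myosin, read -5.57, -5.31 and -5.83 in Control+RYGB and -4.57 and 5.89 in DM+RYGB. Tnnt2, cardiac troponin T, read -3.25, -2.87 and -3.34 in Control+RYGB and -1.86 and 6.54 in DM+RYGB. Both were far above every other array in DM+RYGB 2 alone. Across all genes 219 were at least 8-fold higher in DM+RYGB 2 than in DM+RYGB 1, 25 of them from the heart list, and 22 were at least 8-fold higher in DM+RYGB 1. The skeletal muscle sum was 18.3 in DM+RYGB 2 against 2.58 to 2.70 in the other 4, and the fat sum 14.6 against 4.22 to 5.97. The red blood cell sum was 14.8 in DM+RYGB 1, 104 in DM+RYGB 2 and 60.0 to 73.5 in Control+RYGB. For these reasons a change is reported only where both DM+RYGB arrays lay beyond every Control+RYGB array.

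**Figure D1:**
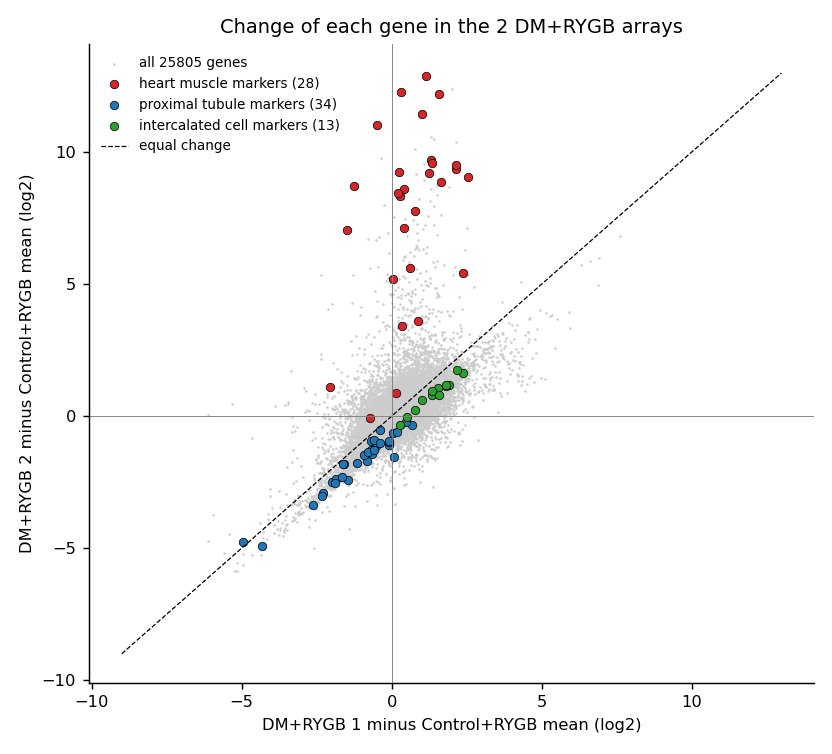
Change of each of 25805 genes from the Control+RYGB mean (log2), in DM+RYGB 1 on the x axis and DM+RYGB 2 on the y axis. Grey points are all genes, coloured points are 3 marker lists, and the dashed line marks equal change. Proximal tubule markers lie low and intercalated cell markers mostly high in both arrays, whereas 25 of 28 heart markers are at least 8-fold higher in DM+RYGB 2 than in DM+RYGB 1.

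Of 25805 genes tested, 1913 rose and 2494 fell in diabetic RYGB rats. A gene is said to rise or fall when limma's adjusted p was under 0.05 with 3 ways of scaling the arrays, in 1 direction, and both DM+RYGB arrays lay beyond all Control+RYGB arrays. That is 7.41% and 9.66% of genes, against 63.9% whose arrays did not overlap at any p. With the 75th percentile alone 7859 genes passed (30.5%), and 65.6% of them were higher. That share was 29.9% with median scaling and 45.9% with quantile scaling. The median change of all genes was 0.27, -0.09 and 0.01 in turn, and every list median below is to be read against the first value. Among the genes that passed all scalings, 31 rises and 72 falls reached 8-fold in both arrays.

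A list whose share lies near these values is not set apart from the genes at large. The lists hold only genes with a symbol, and of 14358 such genes 1077 rose and 1848 fell. Falls were thus more common among them than among all genes. A list with a share of falls only somewhat above 9.66% is therefore not set apart either. Within each scan day the sign of a change is fixed by the rule that both arrays lie beyond the controls, but its size is not, and 1273 rises and 893 falls reached 2-fold on both days. Without DM+RYGB 2, 2503 genes rose and 2841 fell, 1667 and 2179 of them shared with the counts above. Among bright probes the 2 DM+RYGB arrays had a spread of 0.39 (log2), against 0.0161 to 0.2 between arrays within the other groups. The common error estimate may thus understate the noise of this comparison. With limma fitted to only the RYGB groups, 385 genes rose and 706 fell. Some genes named below did not pass that fit, such as Egf (adjusted p = 0.067) and Podxl (adjusted p = 0.056). The counts also moved with the controls and the model. They were 759 and 1299 without Control+RYGB 1, 699 and 1298 without Control+RYGB 2 and 3, and 574 and 1023 with scan day as a block. Leaving out either Control+RYGB sample leaves a single one, whose spread is then taken from the other groups. Under the scan-day block 534 of 574 rises and 1019 of 1023 falls were among those above. That block kept DM+Sham 2 and 3, scanned on different days, as separate samples. It left fewer residual degrees of freedom than the 5 of the main fit, so fewer calls need not reflect scan day itself.

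The genes with the largest rises were ranked by the smaller of the changes in both arrays. Akr1c2, an aldo-keto reductase that reduces steroids, led the list. It read -6.85, -7.02 and -7.11 in Control+RYGB and 0.64 and -0.13 in DM+RYGB. The change was 7.21 ± 0.28 (SE, adjusted p = 6.6e-05), or 148-fold. Akr1c genes are close copies of each other, so which member was bound is uncertain. Reg3b, a secreted lectin that binds bacteria and is made by stressed epithelia, read -8.81, -8.93 and -10.51 in Control+RYGB and -4.96 and -4.18 in DM+RYGB. It was not well above background in any Control+RYGB array and at least 16.0-fold higher in DM+RYGB. Pla2g2a, a secreted phospholipase of inflammation, read -5.89, -5.93 and -5.76 in Control+RYGB and -2.19 and -1.55 in DM+RYGB, a change of 4.00 ± 0.25 (SE, adjusted p = 0.00026). Gp2, a glycoprotein related to uromodulin, read -1.67, -1.82 and -1.82 in Control+RYGB and 2.35 and 1.52 in DM+RYGB, a change of 3.68 ± 0.28 (SE, adjusted p = 0.0004). That the arrays of both groups do not overlap follows from the rule for these genes.

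Nr1i3, the xenobiotic receptor CAR, changed by 3.01 ± 0.16 (SE, adjusted p = 0.00018), while another probe of the gene changed by 0.24. Pnoc, the precursor of the neuropeptide nociceptin, read -5.52, -5.35 and -5.41 in Control+RYGB and -2.08 and -2.61 in DM+RYGB and changed by 3.11 ± 0.23. Marchf11, a membrane-bound ubiquitin ligase, changed by 3.42 ± 0.22. Tp53i11, a p53-inducible gene, changed by 3.31 ± 0.16. Ly6g6e, of the Ly6 family, changed by 3.30 ± 0.21, and Clip3, a microtubule-binding protein, by 3.21 ± 0.16. Their adjusted p-values in limma lay between 0.00013 and 0.0004. The olfactory receptor probes Or52e8b, Or52e51 and Or9q1 were below background in Control+RYGB and at least 16.5, 3.94 and 5.32-fold higher in DM+RYGB. They belong to a very large gene family, so their identity is uncertain. Normexp background correction, another way to handle dim signal, gave a change of 2.85 (adjusted p = 0.066) for Or52e8b, 2.59 (adjusted p = 0.087) for Or52e51 and 2.45 (adjusted p = 0.096) for Or9q1. Ciart and Dbp, also among the 15 largest rises, are described with the clock.

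The largest falls included carriers and enzymes of the proximal tubule and secreted proteins best known from liver. Slc5a12, the sodium-coupled lactate transporter of the brush border, read 2.90, 2.76 and 2.80 in Control+RYGB and -2.11 and -2.81 in DM+RYGB. Its change was -5.30 ± 0.25 (SE, adjusted p = 0.00013), and -3.53 by another probe. Slc4a4, which carries bicarbonate from the proximal tubule cell to the blood, read 4.90, 4.77 and 4.89 in Control+RYGB and -0.10 and 0.09 in DM+RYGB. The change was -4.87 ± 0.12 (SE, adjusted p = 4.1e-05), or 29.3-fold lower, and -3.22 by another probe. Slc2a2, the glucose transporter of the basolateral membrane, read 3.77, 3.57 and 3.59 in Control+RYGB and -0.65 and -1.23 in DM+RYGB and changed by -4.61 ± 0.21 (SE, adjusted p = 0.00011). Cyp27b1, the enzyme that makes active vitamin D, read 1.75, 1.77 and 1.78 in Control+RYGB and -2.52 and -2.64 in DM+RYGB and changed by -4.34 ± 0.13 (SE, adjusted p = 4.1e-05). The 2 DM+RYGB arrays lay within 1 unit of each other for each of these.

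Acot5, a peroxisomal acyl-CoA thioesterase from a family of close copies, changed by -5.53 ± 0.20 (SE, adjusted p = 6e-05), and Slc27a5, the bile acid CoA ligase, by -4.96 ± 0.20 (SE, adjusted p = 7.7e-05). Fam111a, a protease that acts in DNA replication, read -0.28, -0.17 and -0.20 in Control+RYGB and -5.81 and -5.40 in DM+RYGB. Among the secreted proteins, Apcs (serum amyloid P) changed by -5.37 ± 0.15, Hrg (histidine-rich glycoprotein) by -4.58 ± 0.19, Serpinc1 (antithrombin) by -4.64 ± 0.26 and Lect2, a chemotactic protein best known from liver, by -5.09 ± 0.14. Their adjusted p-values ranged from 4.1e-05 to 0.00019. Cxcl10, an interferon-induced chemokine, read 4.73, 4.60 and 4.64 in Control+RYGB and 0.37 and 0.07 in DM+RYGB, a change of -4.46 ± 0.14 (SE, adjusted p = 4.1e-05). Folh1, a brush border peptidase, changed by -4.65 ± 0.20 and Akr1b10, an aldo-keto reductase with close relatives, by -5.41 ± 0.46. Fosl1, a partner of Jun, was below background on both DM+RYGB arrays and at least 15.7-fold lower there. With normexp background correction the call was lost, with a change of -1.89 (adjusted p = 0.096) for Acot5, -0.94 (adjusted p = 0.34) for Lect2 and 0.19 (adjusted p = 0.86) for Fosl1.

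**Figure D2:**
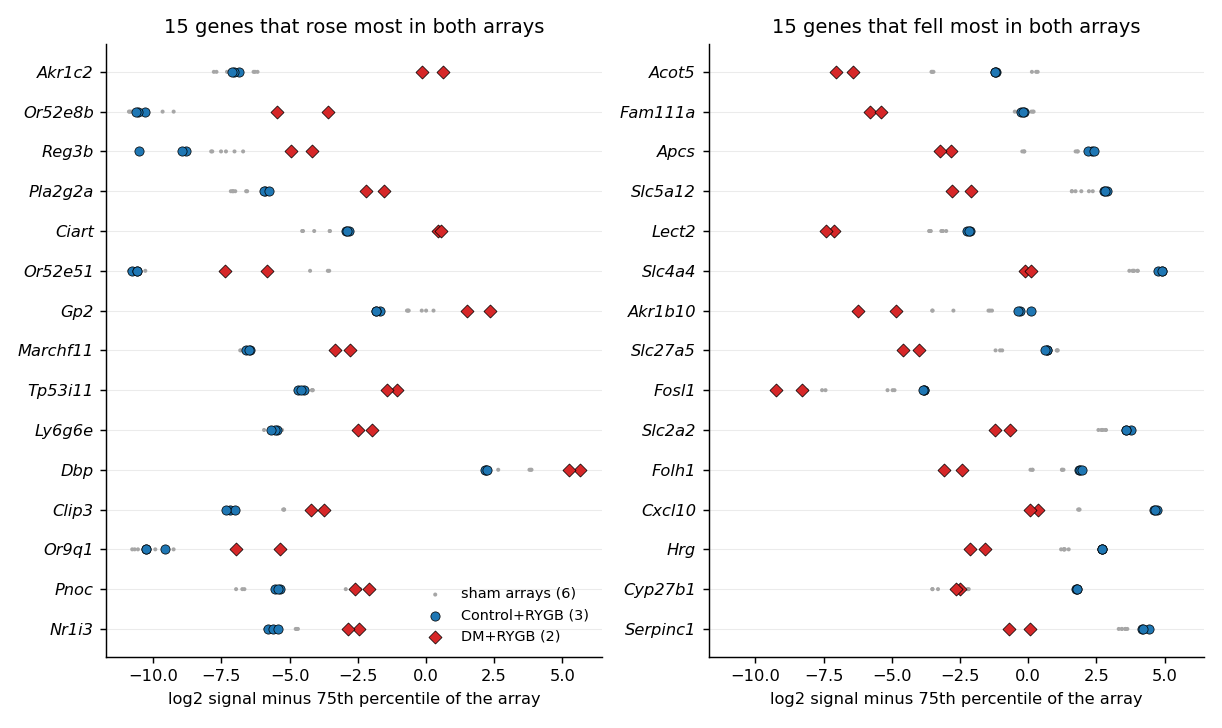
Levels (log2 signal minus the 75th percentile of the array, x axis) of the 15 genes with the largest rise and the 15 with the largest fall, 1 point per array. Diamonds are the 2 DM+RYGB arrays, circles the 3 Control+RYGB arrays and small grey points the 6 sham arrays. The rule for these genes keeps diamonds and circles apart, and the gap differs by gene. For Akr1c2 they lie at 0.64 and -0.13 against -6.85 to -7.11.

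Nephron segments moved apart. Of 34 proximal tubule markers 23 fell and 0 rose, with a median change of -1.01 against 0.27 for all genes. Their summed signal was 458 and 270.5 in DM+RYGB and 614 to 776 in Control+RYGB, beside 319 to 472 in the sham arrays. The sum of DM+RYGB 1 thus lay within the sham range, that of DM+RYGB 2 below it and those of the controls above it. The median level of the markers was 1.98 and 1.54 in DM+RYGB, below the 2.67 to 3.13 of the sham arrays. In Control+RYGB it was 3.52 to 3.77. All arrays carried the segment, with 34 of 34 markers well above background. Cubn, the cubilin receptor for filtered protein, read 1.32, 1.39 and 1.41 in Control+RYGB and -0.62 and -1.15 in DM+RYGB and fell by 2.24 on the log2 scale. Aqp1, the water channel of this segment, read 4.41, 4.33 and 4.39 in Control+RYGB and 2.78 and 2.59 in DM+RYGB, a change of -1.70 ± 0.12 (SE, adjusted p = 0.00033). Cyp2e1, a cytochrome P450, changed by -1.71 ± 0.12. The fall was not uniform across the segment. Pck1, a rate-setting enzyme of glucose production, changed by -0.20, and Miox, which starts inositol breakdown, by 0.17. Neither passed, and both were chosen after their values were seen. In RNA from whole tissue, fewer cells of a type and less RNA per cell cannot be told apart.

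Markers of the other segments rose more often than they fell. Of 16 podocyte genes 8 rose and none fell (median 0.98). Nphs1, nephrin of the filtration slit, read 1.48, 1.44 and 1.51 in Control+RYGB and 3.25 and 2.71 in DM+RYGB, a change of 1.5 ± 0.19 (SE, adjusted p = 0.002). Podxl, a podocyte surface sialoprotein, changed by 1.15 ± 0.16. Of 11 principal cell genes 6 rose and none fell (median 1.44). Scnn1g, a subunit of the epithelial sodium channel, read -0.02, 0.01 and 0.03 in Control+RYGB and 2.11 and 1.54 in DM+RYGB, a change of 1.83 ± 0.19 (SE, adjusted p = 0.0012). Avpr2, the vasopressin receptor, changed by 1.94 ± 0.23 and Nr3c2, the mineralocorticoid receptor, by 1.58 ± 0.16. Elf5, a transcription factor of these cells, changed by 1.61 ± 0.20, but its other probe by -0.90. Of 13 intercalated cell genes 9 rose and none fell (median 1.19). Slc26a4, pendrin, read -0.16, 0.00 and -0.01 in Control+RYGB and 2.09 and 1.65 in DM+RYGB, a change of 1.95 ± 0.17 (SE, adjusted p = 0.00062). Slc4a9, an anion exchanger, changed by 2.0 ± 0.24 and the proton pump subunit Atp6v0d2 by 1.31 ± 0.17.

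The thick ascending limb had 4 rises among 10 genes. Egf, the growth factor precursor made there, read 3.65, 3.38 and 3.36 in Control+RYGB and 5.56 and 4.69 in DM+RYGB, a change of 1.62 ± 0.28 (SE, adjusted p = 0.0062), and the potassium channel Kcnj1 changed by 1.60 ± 0.22. In each of them DM+RYGB 1 was the higher of both diabetic arrays. The distal convoluted tubule had 4 rises and 2 falls among 10 genes. Slc12a3, the thiazide-sensitive cotransporter, changed by 1.29 ± 0.22, Slc8a1, a sodium-calcium exchanger also abundant in heart, by 2.19 ± 0.14 (2.31 in DM+RYGB 1 and 2.07 in DM+RYGB 2), and the calcium channel Trpv5 by 2.90 ± 0.20, with 0.76 by its other probe. S100g, the calcium-binding calbindin, fell by 1.25. The counts for proximal tubule falls and for podocyte, principal cell, intercalated cell, thick limb and distal tubule rises read 20, 8, 8, 10, 6 and 5 without DM+RYGB 2, 16, 1, 6, 2, 0 and 2 without Control+RYGB 1, 12, 1, 6, 3, 0 and 2 without Control+RYGB 2 and 3, and 14, 1, 4, 2, 1 and 2 with scan day as a block. S100g had an adjusted p of 0.051 with the block. Most calls of the podocyte, intercalated cell and thick limb lists were thus lost when either Control+RYGB sample was left out. The number of distal tubule rises also dropped, whereas that of principal cell rises stayed the same.

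Markers of other cells moved as well. Of 19 genes typical of liver, several of which the proximal tubule also makes, 14 fell (median -1.93). Their summed signal was 15.1 and 12.4 in DM+RYGB, 33.0 to 41.8 in Control+RYGB and 10.7 to 18.0 in the sham arrays. Fga, Fgb and Fgg, the chains of fibrinogen, changed by -3.82 ± 0.19, -2.82 ± 0.16 and -1.98 ± 0.13. Cyp3a2, a liver cytochrome P450 with close relatives, read -0.91, -0.85 and -0.88 in Control+RYGB and -4.69 and -5.17 in DM+RYGB. With normexp the change was -0.80 (adjusted p = 0.22) for Fgg and -2.02 (adjusted p = 0.096) for Cyp3a2. Of 12 urothelial genes 4 rose, and their sum was 9.84 and 7.57 against 3.31 to 3.64. Krt7, a keratin of simple epithelia, changed by 1.55 ± 0.18, and Upk1b, a uroplakin, by 1.61 ± 0.19, with 0.01 by its other probe. Among 14 endothelial genes 3 rose and 1 fell. Cldn5, the endothelial tight junction claudin, read -0.99, -1.14 and -1.06 in Control+RYGB and 1.24 and 1.26 in DM+RYGB, a change of 2.29 ± 0.14 (SE, adjusted p = 0.00022), and Plvap, of fenestrated vessels, changed by -0.87 ± 0.21. Plvap had an adjusted p of 0.061 with scan day as a block. Of 16 macrophage genes 1 rose (Itgam, 1.78 ± 0.28), and no T or B cell gene of 15 rose or fell. Of the heart list 1 gene rose in both arrays, Tnnc1, which slow skeletal muscle also uses, with 0.19, 0.13 and 0.09 in Control+RYGB and 2.55 and 5.58 in DM+RYGB. Its adjusted p with scan day as a block was 0.062. The counts of liver falls and urothelial rises read 13 and 5 without DM+RYGB 2, 10 and 4 without Control+RYGB 1, 10 and 4 without Control+RYGB 2 and 3, and 10 and 4 with scan day as a block. How far these other tissues take part in the changes of kidney genes was not tested.

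**Figure D3:**
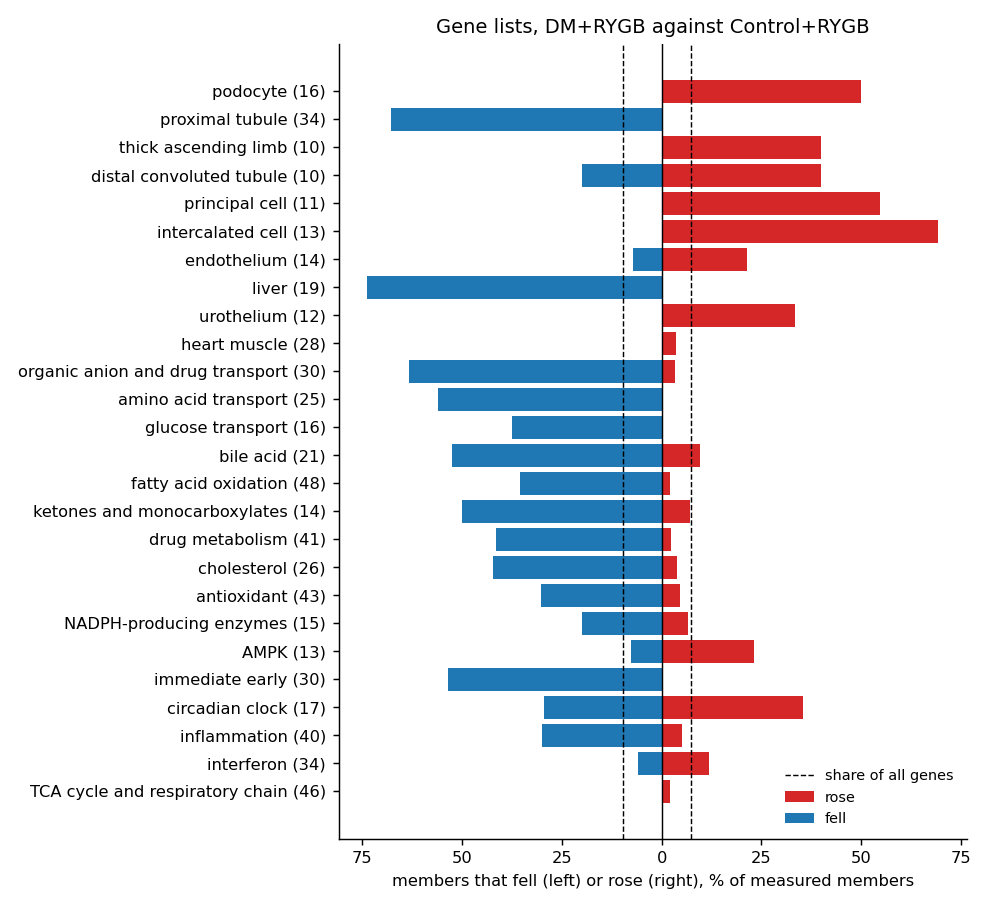
Share of each list's measured members (number in brackets) that rose, to the right, or fell, to the left, in DM+RYGB against Control+RYGB, in percent. Dashed lines give the shares over all genes, 7.41% and 9.66%, including genes without a symbol, which the lists do not hold. Proximal tubule, liver and transport lists extend far to the left, and podocyte, principal cell and intercalated cell lists far to the right.

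Many carriers of the proximal tubule fell. Of 30 organic anion and drug transporters 19 fell and 1 rose (median -1.35), where 9.66% of all genes fell. Abcc2, an apical conjugate pump, read 0.76, 0.87 and 0.87 in Control+RYGB and -2.84 and -3.25 in DM+RYGB, a change of -3.86 ± 0.17 (SE, adjusted p = 0.00011). Abcg2, a drug and urate pump, changed by -2.59 ± 0.19 and Slc47a1, which secretes organic cations, by -2.69 ± 0.19. Abcb1b, one of the rat P-glycoproteins, changed by -1.83 ± 0.12. Slco3a1 was the member that rose (1.49 ± 0.10). Of 25 amino acid transport genes 14 fell and none rose (median -0.86). Slc7a7, of basic amino acids, read 0.05, 0.01 and 0.01 in Control+RYGB and -3.45 and -4.04 in DM+RYGB, a change of -3.78 ± 0.19 (SE, adjusted p = 0.00014). Slc7a8 changed by -3.05 ± 0.15, the neutral amino acid carrier Slc6a19 by -3.01 ± 0.22, and its partner Cltrn, collectrin, by -3.37 ± 0.21.

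Of 16 glucose transport genes 6 fell and none rose, with a median of 0.23 in DM+RYGB 1 and -0.55 in DM+RYGB 2. Beside Slc2a2, the sodium-glucose cotransporter Slc5a2 of the early proximal tubule read 5.31, 5.13 and 5.16 in Control+RYGB and 2.94 and 2.31 in DM+RYGB, a change of -2.60 ± 0.22 (SE, adjusted p = 0.00062), or 6.06-fold. Slc5a10, of mannose and fructose, changed by -1.37 ± 0.16 and the facilitative Slc2a12 by -0.98 ± 0.13. Of 15 genes of phosphate and vitamin D, 4 fell and 1 rose. Cyp24a1, which degrades active vitamin D, was the rise. It read -6.98, -7.42 and -7.25 in Control+RYGB and -3.94 and -4.74 in DM+RYGB, a change of 2.81 ± 0.29 (SE, adjusted p = 0.0011), opposite in direction to Cyp27b1. Slc34a3, a renal phosphate carrier, changed by -1.94 ± 0.29 and Galnt3, which protects the hormone Fgf23, by -1.73 ± 0.22. Of 17 genes of ammonia and acid handling 3 rose and 4 fell. The ammonia channels Rhbg and Rhcg changed by 1.49 ± 0.21 and 1.54 ± 0.23, and Glud1, glutamate dehydrogenase, by -1.18 ± 0.24. The falls of organic anion, amino acid, glucose and phosphate genes read 17, 14, 5 and 5 without DM+RYGB 2, 15, 9, 4 and 4 without Control+RYGB 1, 14, 9, 4 and 4 without Control+RYGB 2 and 3, and 14, 9, 4 and 4 with scan day as a block. The rises and falls of ammonia and acid genes read 3 and 4 without DM+RYGB 2, 0 and 1 without Control+RYGB 1, 0 and 1 without Control+RYGB 2 and 3, and 0 and 2 with scan day as a block.

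Lipid genes fell more often than they rose. Of 21 bile acid genes 11 fell and 2 rose. Baat, which joins bile acids to taurine or glycine, read 0.83, 0.76 and 0.70 in Control+RYGB and -2.33 and -2.94 in DM+RYGB, a change of -3.41 ± 0.20 (SE, adjusted p = 0.0002). Cyp27a1, a sterol hydroxylase, was among the rises (1.99 ± 0.14). Of 14 genes of ketones and monocarboxylates 7 fell and 1 rose. Slc5a8, the other sodium-coupled lactate carrier, read 0.35, 0.31 and 0.33 in Control+RYGB and -2.55 and -3.02 in DM+RYGB, a change of -3.12 ± 0.17 (SE, adjusted p = 0.00018). Slc16a4 changed by -3.03 ± 0.29 and the ketone enzyme Bdh2 by -1.44 ± 0.17. Of 48 fatty acid oxidation genes 17 fell and 1 rose. Angptl4, an inhibitor of lipoprotein lipase induced by PPAR receptors, read 1.89, 1.63 and 1.65 in Control+RYGB and -0.60 and -0.62 in DM+RYGB, a change of -2.38 ± 0.15 (SE, adjusted p = 0.00026). Vnn1, which recycles coenzyme A precursors, changed by -3.55 ± 0.30, Cyp4a1, a fatty acid hydroxylase with close relatives, by -2.40 ± 0.22, and Decr2 of peroxisomes by -2.15 ± 0.14.

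Of 26 cholesterol genes 11 fell and 1 rose. Insig1, a sterol sensor, read 1.90, 1.97 and 2.02 in Control+RYGB and 0.02 and 0.28 in DM+RYGB, a change of -1.80 ± 0.13 (SE, adjusted p = 0.00034), and Dhcr7, of the last synthesis step, changed by -2.22 ± 0.17. Of 24 lipid synthesis genes 9 fell and 2 rose. Fasn, fatty acid synthase, changed by -1.13 ± 0.14, Elovl2, an elongase, by -3.34 ± 0.21 and Plin2, which coats lipid droplets, by -1.38 ± 0.14. Of 18 gluconeogenesis genes 3 fell and 1 rose. G6pc1, which releases free glucose, read 5.33, 5.04 and 5.12 in Control+RYGB and 2.62 and 2.17 in DM+RYGB, a change of -2.81 ± 0.21 (SE, adjusted p = 0.00037), and Pc, pyruvate carboxylase, changed by -2.0 ± 0.18. In glycolysis 4 of 31 genes rose and 1 fell. Pgam2, among the rises, read -1.79, -1.92 and -1.86 in Control+RYGB and 0.41 and 2.68 in DM+RYGB. It was thus much higher in DM+RYGB 2, the array with heart muscle genes. Hk1, a hexokinase, changed by 0.99 ± 0.18 and Pkm, the muscle-type pyruvate kinase, by 1.49 ± 0.23, while Pklr, the liver and proximal tubule form, changed by -1.16 ± 0.27. In all, 1 of 46 genes of the citric acid cycle and respiratory chain rose and none fell, with a median of 0.07.

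Of 27 genes of arginine, creatine and polyamines 9 fell and 4 rose. Ass1, which makes the precursor of arginine, read 2.24, 1.93 and 1.99 in Control+RYGB and -0.02 and -0.94 in DM+RYGB, a change of -2.58 ± 0.28 (SE, adjusted p = 0.0013), and Gatm, of creatine synthesis, changed by -1.76 ± 0.15. The falls of bile acid, ketone, fatty acid oxidation, lipid synthesis, cholesterol and arginine genes read 10, 8, 23, 9, 10 and 7 without DM+RYGB 2, 7, 5, 10, 6, 6 and 5 without Control+RYGB 1, 7, 7, 11, 6, 6 and 5 without Control+RYGB 2 and 3, and 6, 5, 11, 5, 6 and 5 with scan day as a block. Gluconeogenesis falls and glycolysis rises read 4 and 4 without DM+RYGB 2, 2 and 1 without Control+RYGB 1, 2 and 1 without Control+RYGB 2 and 3, and 2 and 0 with scan day as a block.

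Few of the NADPH-producing enzymes passed. Of 15 measured 3 fell (20%) and 1 rose (6.67%), with a median of -0.20. Over all genes 9.66% fell and 7.41% rose. Idh1, cytosolic isocitrate dehydrogenase, read 2.98, 2.94 and 2.92 in Control+RYGB and 1.08 and 0.74 in DM+RYGB, a change of -2.04 ± 0.14 (SE, adjusted p = 0.00031), or 4.12-fold. H6pd, of the endoplasmic reticulum, changed by -0.60 ± 0.13 (adjusted p = 0.016), with -0.19 by its other probe. Mthfd2l, a mitochondrial folate enzyme, was the rise (0.95 ± 0.12). Me1, malic enzyme, changed by -0.59 ± 0.15 (adjusted p = 0.024) but did not pass all scalings. Me2 changed by 0.81 ± 0.42 and mitochondrial Idh2 by 0.40 ± 0.30, neither of which passed. Nnt, the mitochondrial transhydrogenase, read 4.29, 4.21 and 4.20 in Control+RYGB and 3.66 and 4.85 in DM+RYGB, so that the 2 diabetic arrays lay on either side of the controls. Mthfd1, Mthfd2, Aldh1l1, Aldh1l2, Nadk and Nadk2 had adjusted p-values between 0.066 and 0.79. Of 13 pentose phosphate genes 4 fell, the largest change being Shpk (-1.59 ± 0.17), a kinase of sedoheptulose. The pentose phosphate falls read 4 without DM+RYGB 2, 1 without Control+RYGB 1, 1 without Control+RYGB 2 and 3, and 1 with scan day as a block. H6pd had an adjusted p of 0.076 with that block.

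Of 13 genes of AMPK and its upstream kinases 3 rose and 1 fell. The regulatory subunit Prkag1 read -0.82, -0.75 and -0.91 in Control+RYGB and 0.23 and 0.15 in DM+RYGB, a change of 1.02 ± 0.11 (SE, adjusted p = 0.0012). Prkag2 changed by 0.86 ± 0.10 and the upstream kinase Camkk1 by 1.34 ± 0.18. Camkk2, another upstream kinase, changed by -0.94 ± 0.13, a dim gene whose sign turned with normexp background correction. The catalytic subunit Prkaa1 changed by 0.50 ± 0.11 (adjusted p = 0.014), and Prkab1, Prkag3 and Stk11 by -0.36 ± 0.11, 0.85 ± 0.15 and 0.50 ± 0.13. None of these 4 passed all scalings. The catalytic subunit Prkaa2 read -1.48, -1.40 and -1.42 in Control+RYGB and -2.44 and -1.47 in DM+RYGB, lower in DM+RYGB 1 only. For Prkaa2, Prkab2, Strada, Stradb and Cab39 the adjusted p ranged from 0.061 to 0.29.

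Of 12 genes of NADPH oxidases 2 fell. Nox4, the tubular oxidase, read 0.06, 0.05 and 0.05 in Control+RYGB and -2.58 and -3.29 in DM+RYGB, a change of -2.99 ± 0.22 (SE, adjusted p = 0.00037), and its partner Cyba changed by -1.45 ± 0.23. Of 43 antioxidant genes 13 fell and 2 rose. Gpx3, the plasma glutathione peroxidase made in the proximal tubule, read 3.89, 3.69 and 3.76 in Control+RYGB and 0.68 and 0.15 in DM+RYGB, a change of -3.39 ± 0.18 (SE, adjusted p = 0.00018). Gpx1 changed by -1.14 ± 0.11 and thioredoxin reductase Txnrd1 by -1.17 ± 0.11, while Nqo1, a target of Nrf2, rose (1.37 ± 0.15). Of 41 drug metabolism genes 17 fell and 1 rose. Sult1c2, a sulfotransferase, read 4.35, 4.08 and 4.13 in Control+RYGB and 0.98 and 0.28 in DM+RYGB, a change of -3.60 ± 0.27 (SE, adjusted p = 0.00041). The counts of NADPH falls, AMPK rises, antioxidant falls and drug metabolism falls read 5, 2, 13 and 13 without DM+RYGB 2, 1, 0, 9 and 7 without Control+RYGB 1, 1, 1, 9 and 9 without Control+RYGB 2 and 3, and 2, 0, 6 and 10 with scan day as a block. The NADPH and AMPK calls thus depended on the controls used.

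Of the injury and inflammation genes that passed, more fell than rose. Of 28 kidney injury genes 7 fell and 3 rose, with a median of 0.02. The kidney injury molecule gene Havcr1, known to be switched on in damaged proximal tubule, read -0.47, -0.53 and -0.53 in Control+RYGB and -2.92 and -3.10 in DM+RYGB, a change of -2.51 ± 0.11 (SE, adjusted p = 0.0001). Spp1, osteopontin, changed by -2.46 ± 0.21 and Gdf15, a stress cytokine, by -2.63 ± 0.21. Of 40 inflammation genes 12 fell and 2 rose, with a median of -0.17. Ccl20, a chemokine, read -1.59, -1.60 and -1.58 in Control+RYGB and -4.81 and -4.76 in DM+RYGB, a change of -3.20 ± 0.11 (SE, adjusted p = 4.5e-05). Cxcl11 changed by -1.22 ± 0.10 and Ccl2, which recruits monocytes, by -1.46 ± 0.13, whereas Csf1, the macrophage growth factor, rose (1.1 ± 0.12). Of 34 interferon genes 4 rose and 2 fell. The regulator Irf1 changed by -1.75 ± 0.13, with -0.47 by its other probe, while Irf7 and Irf9 rose (0.82 ± 0.10 and 0.99 ± 0.11).

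Of 36 matrix genes 9 fell and 3 rose. Col4a4, a basement membrane collagen, read 1.69, 1.67 and 1.67 in Control+RYGB and -0.73 and -1.35 in DM+RYGB, a change of -2.72 ± 0.19 (SE, adjusted p = 0.00035). Tgfb2, a growth factor of fibrosis, changed by -2.36 ± 0.15, but by 0.65 with its other probe, and Fn1, fibronectin, by -1.12 ± 0.12, with -0.02 by its other probe. Of 35 cell cycle genes 9 fell and 1 rose. Kif11, a mitotic motor, read 1.99, 2.03 and 2.07 in Control+RYGB and 0.05 and -0.46 in DM+RYGB, a change of -2.23 ± 0.17 (SE, adjusted p = 0.00043), and Cdk1 changed by -1.15 ± 0.12. With normexp the call was lost, with a change of -0.21 (adjusted p = 0.8) for Tgfb2, -0.25 (adjusted p = 0.6) for Cdk1 and -1.30 (adjusted p = 0.11) for Ccl20. The counts of injury, matrix and inflammation falls, interferon rises and cell cycle falls read 8, 10, 14, 4 and 7 without DM+RYGB 2, 7, 7, 10, 1 and 3 without Control+RYGB 1, 7, 6, 9, 0 and 3 without Control+RYGB 2 and 3, and 7, 6, 8, 0 and 4 with scan day as a block. Of 33 chaperone genes 7 fell and 1 rose. The rise was Hspb8, which is abundant in heart, with -4.89, -4.75 and -4.80 in Control+RYGB and -3.0 and -0.86 in DM+RYGB. Chaperone falls and rises read 6 and 2 without DM+RYGB 2, 3 and 0 without Control+RYGB 1, 2 and 0 without Control+RYGB 2 and 3, and 1 and 0 with scan day as a block.

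Of 13 renin-angiotensin genes 4 fell and 1 rose. Enpep, which degrades angiotensin, changed by -1.33 ± 0.12, while Cma1, a mast cell chymase, changed by 1.16 ± 0.13. These falls read 2 without DM+RYGB 2, 2 without Control+RYGB 1, 1 without Control+RYGB 2 and 3, and 2 with scan day as a block, and 9 without DM+RYGB 1. Of 16 corticosteroid genes 4 fell and 1 rose. Hsd11b1, which regenerates corticosterone, read 4.79, 4.38 and 4.39 in Control+RYGB and 2.55 and 2.03 in DM+RYGB, a change of -2.30 ± 0.28 (SE, adjusted p = 0.0019), and the kinase Sgk1 changed by -0.89 ± 0.12. Of 30 insulin and IGF genes 4 fell and none rose. Igfbp1, a binding protein that insulin represses in liver, read 2.98, 3.06 and 3.01 in Control+RYGB and 0.82 and 0.37 in DM+RYGB, a change of -2.41 ± 0.16 (SE, adjusted p = 0.00031), and Igfbp4 changed by -1.96 ± 0.15. Of 29 nephron transcription factors 6 rose and 6 fell. Hnf4a, a factor of proximal tubule cells, changed by -0.78 ± 0.16, and Tfap2b of the distal nephron by 1.56 ± 0.20. Of 25 junction genes 5 fell and 3 rose, and Cldn2 of the leaky proximal tubule was among the falls (-2.11 ± 0.18). Corticosteroid falls, insulin and IGF falls, transcription factor rises, transcription factor falls and junction falls read 4, 5, 10, 6 and 6 without DM+RYGB 2, 2, 3, 2, 3 and 4 without Control+RYGB 1, 2, 4, 2, 2 and 5 without Control+RYGB 2 and 3, and 1, 3, 1, 2 and 4 with scan day as a block. Hnf4a had an adjusted p of 0.061 with that block.

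Circadian clock genes moved in both directions. Of 17 measured 6 rose and 5 fell, where 17.1% of all genes did either. The activator Bmal1 read 0.34, 0.37 and 0.37 in Control+RYGB and -4.04 and -3.70 in DM+RYGB. Its change was -4.23 ± 0.14 (SE, adjusted p = 4.5e-05), or 18.7-fold, and -3.93 by another probe. Npas2, which pairs with it, read -1.58, -1.68 and -1.72 in Control+RYGB and -5.16 and -4.59 in DM+RYGB, a change of -3.24 ± 0.19 (SE, adjusted p = 0.00021), though its other probe changed by 0.84. With normexp Npas2 changed by -1.21 (adjusted p = 0.12). Among the rises, Dbp, a transcription factor of clock output, read 2.20, 2.16 and 2.25 in Control+RYGB and 5.63 and 5.23 in DM+RYGB, a change of 3.23 ± 0.19 (SE, adjusted p = 0.00021), and 4.09 to 4.20 by its other probes. Ciart, a repressor of the activator pair, read -2.92, -2.82 and -2.89 in Control+RYGB and 0.45 and 0.54 in DM+RYGB, a change of 3.38 ± 0.22 (SE, adjusted p = 0.00027). Nr1d1, the receptor that represses Bmal1, read -4.85, -4.77 and -4.88 in Control+RYGB and -2.62 and -2.67 in DM+RYGB, a change of 2.19 ± 0.11 (SE, adjusted p = 0.00015). Tef, a relative of Dbp, changed by 2.12 ± 0.13. Per3 (2.37) and Nr1d2 (1.75) also rose and Nfil3 (-1.46), Csnk1d (-0.67) and Clock (-0.49) fell, all named after their values were seen. Per1, Per2, Cry1 and Cry2 changed by 0.27, 0.63, -0.36 and 0.62 and did not pass. The time of day of tissue collection is not given in the sources used here, and its part was not tested.

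Promoters of 3 clock genes and 1 immediate early gene that changed are shown, all of them with a motif match. Each is the 250 bases before the start site in RefSeq, build GRCr8, read 5′ to 3′ on the gene's strand. Capitals mark motif matches, searched on both strands in these windows: the E-box CACGTG, bound by the Bmal1 complex, the core TAGGTCA of the element bound by Nr1d1 and its relatives, and the CArG box by name, bound by serum response factor. Bmal1 (chr1:176766078-176766327, plus strand) holds the core TAGGTCA 16 bases before the start. Ciart (chr2:186112247-186112496, minus strand) holds 3 E-boxes, 93, 35 and 21 bases before it. Tef (chr7:115206577-115206826, plus strand) holds 1 E-box, 198 bases before it. Egr2 (chr20:21054442-21054691, minus strand) holds a CArG box 83 bases before it.
Bmal1: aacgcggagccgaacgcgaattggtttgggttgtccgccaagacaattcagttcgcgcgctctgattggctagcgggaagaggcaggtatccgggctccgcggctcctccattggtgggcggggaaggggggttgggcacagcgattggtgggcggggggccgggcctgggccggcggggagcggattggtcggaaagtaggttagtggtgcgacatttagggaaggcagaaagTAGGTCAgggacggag
Ciart: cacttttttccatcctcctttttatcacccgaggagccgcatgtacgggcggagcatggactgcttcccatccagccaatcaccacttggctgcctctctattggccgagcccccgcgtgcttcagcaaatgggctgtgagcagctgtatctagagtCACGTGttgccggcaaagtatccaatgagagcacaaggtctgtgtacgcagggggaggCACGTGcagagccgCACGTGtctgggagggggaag
Tef: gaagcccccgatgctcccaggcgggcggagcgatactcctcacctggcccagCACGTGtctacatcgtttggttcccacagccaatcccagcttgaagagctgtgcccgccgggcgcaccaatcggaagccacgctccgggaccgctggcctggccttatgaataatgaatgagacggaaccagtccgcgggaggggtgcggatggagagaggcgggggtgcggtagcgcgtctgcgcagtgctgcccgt
Egr2: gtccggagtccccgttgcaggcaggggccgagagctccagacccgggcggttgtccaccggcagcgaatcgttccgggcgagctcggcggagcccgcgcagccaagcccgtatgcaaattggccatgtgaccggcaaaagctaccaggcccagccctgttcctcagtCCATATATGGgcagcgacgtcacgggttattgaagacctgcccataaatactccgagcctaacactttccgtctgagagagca
Among 18 clock genes with a promoter sequence, 5 held an E-box and 1 the core TAGGTCA. Among 21 immediate early genes 4 held an E-box and 5 a CArG box. Over 33469 promoters the shares with an E-box, the core and a CArG box were 5.59%, 2.26% and 1.5%. These shares count promoters, whereas the lists count genes, some of which have more than 1 promoter. None of these motifs was found in the windows of Dbp, Npas2, Per3, Nr1d2, Nfil3, Clock, Jund or Fosl1, which also changed. The matches describe these letters and not binding in these samples.

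**Figure D4:**
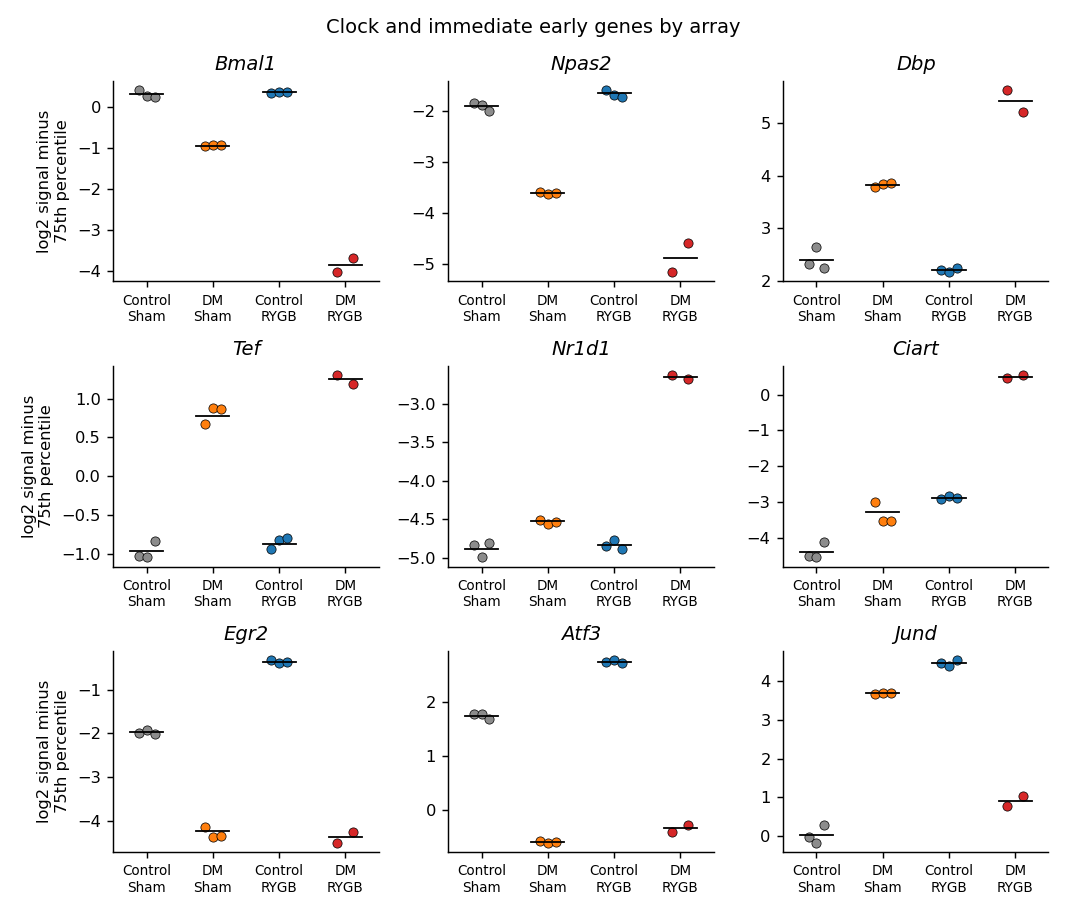
Level of 6 clock genes and 3 immediate early genes in all 11 arrays (y axis, log2 signal minus the 75th percentile, scaled for each gene), by group. Points are arrays and lines group means. Bmal1 and Npas2 are lowest and Dbp, Tef, Nr1d1 and Ciart highest in DM+RYGB, while Jund is low in DM+RYGB and Control+Sham.

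Immediate early genes, which respond quickly to stimuli, fell in many cases. Of 30 measured 16 fell, none rose and 14 passed in neither direction (median -0.66). Egr2 read -0.34, -0.39 and -0.38 in Control+RYGB and -4.49 and -4.24 in DM+RYGB, a change of -4.0 ± 0.13 (SE, adjusted p = 4.5e-05). Atf3, a stress-induced factor, read 2.73, 2.76 and 2.72 in Control+RYGB and -0.40 and -0.27 in DM+RYGB, a change of -3.07 ± 0.11 (SE, adjusted p = 4.8e-05). Jund, an AP-1 subunit, read 4.47, 4.41 and 4.54 in Control+RYGB and 0.76 and 1.02 in DM+RYGB, a change of -3.58 ± 0.17 (SE, adjusted p = 0.00014). Myc changed by -1.71 ± 0.10. Fos changed by -0.17 and Egr1 by -0.57, and neither passed. Both were named after their values were seen. The counts of clock rises, clock falls and immediate early falls read 6, 4 and 20 without DM+RYGB 2, 6, 3 and 10 without Control+RYGB 1, 6, 3 and 8 without Control+RYGB 2 and 3, and 6, 3 and 10 with scan day as a block.

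Diabetes after RYGB was then set beside diabetes after sham surgery, a comparison that shares no array with it. In sham rats 1530 genes rose (5.93%) and 1657 fell (6.42%) with diabetes, counted by adjusted p under 0.05 with 3 scalings. For sham rats the further RYGB condition, that diabetic arrays lie beyond all control arrays, was not set. The sham rule is thus the looser one, and counts set side by side rest on unlike rules. In both settings 240 genes rose, 12.5% of the RYGB rises and 15.7% of the sham rises. Over all genes 5.93% rose in sham rats and 7.41% after RYGB. Another 497 fell in both, 19.9% and 30.0%, where 6.42% of all genes fell in sham rats and 9.66% after RYGB. Both comparisons take the spread of a gene from the same fit, which may add to the shared counts. Over all genes the 2 effects of diabetes correlated at only 0.09 (Pearson). In opposite directions, 193 genes fell after RYGB and rose after sham, and 132 did the reverse. They make up 7.74% of the RYGB falls and 6.90% of the RYGB rises, near the 5.93% and 6.42% of all genes that rose and fell in sham rats. The interaction, which tests the difference between both effects of diabetes, passed with all 3 scalings for 3747 genes (14.5%). A scan-day block left 98 genes passing it with the 75th percentile, against 5706 without the block. How much of that drop comes from the fewer residual degrees of freedom under the block was not tested. The 30 ranked genes were chosen by the RYGB change, which is part of the interaction, so that all 30 passed it is no further result. With the block 11 of them did.

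Some of the largest changes were shared in direction. Acot5 changed by -3.77 in sham rats, Apcs by -1.97 and Cxcl10 by -1.63, all smaller than after RYGB. In the clock, Bmal1 changed by -1.25 in sham rats and -4.23 after RYGB, an interaction of -2.98 (adjusted p = 0.00043). Dbp changed by 1.42 and 3.23. Others changed little with diabetes in sham rats. Slc4a4, Slc2a2 and Slc5a2 changed by 0.15, 0.04 and -0.19 in sham rats, and their interactions were -5.03, -4.66 and -2.41 (adjusted p = 8.8e-05, 0.0004 and 0.0034). List counts in sham rats again lack the condition on the arrays that was set after RYGB. The proximal tubule list had 4 rises and 2 falls with a median of 0.14 in sham rats, against 0 and 23 after RYGB. The liver list had 9 falls and 1 rise, against 14 and 0. The immediate early list had 14 falls and 1 rise in sham rats, against 16 and 0 after RYGB. Its median was -1.06 in sham rats and -0.66 after RYGB, so its fall was not particular to RYGB.

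Single genes had opposite changes. Slc27a5 and Baat, which activate and conjugate bile acids, changed by 2.12 and 1.79 in sham rats and by -4.96 and -3.41 after RYGB. Angptl4 and Cyp4a1 changed by 1.31 and 1.31, then by -2.38 and -2.40. Jund changed by 3.67 and then by -3.58, an interaction of -7.25 (adjusted p = 8.8e-05). Abcb1b changed by 1.66 and -1.83, and the junction protein Cldn1 by 1.41 and -1.96. In the other direction Pnoc changed by -4.08 in sham rats and 3.11 after RYGB, and Upk1b by -2.81 and 1.61. Of the genes named by rule, 16 fell after RYGB and rose after sham, and 10 did the reverse.

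**Figure D5:**
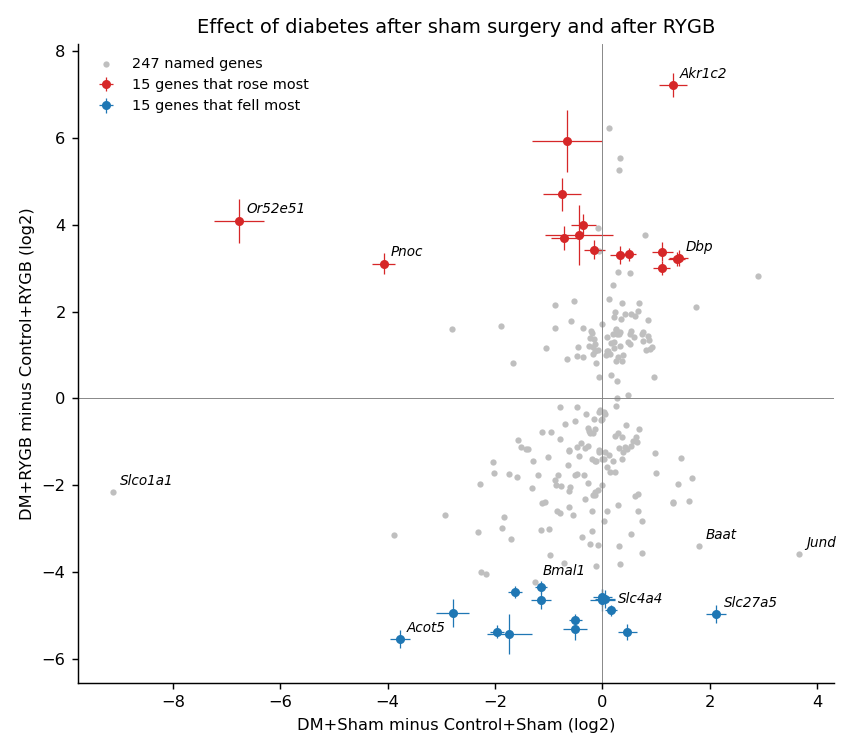
Change with diabetes after sham surgery (x axis, DM+Sham minus Control+Sham, log2) and after RYGB (y axis, DM+RYGB minus Control+RYGB, log2) for 247 named genes. Red and blue points are the 15 genes each that rose or fell most after RYGB, with standard errors from limma. Jund and Slc27a5 lie at lower right and Pnoc at upper left, where the directions oppose. Or52e51 was not above background in Control+RYGB, so its place is no measured size.

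The levels of the sham arrays were set beside the change. Genes that rose or fell were chosen by their RYGB levels, so larger shares than over all genes partly follow from the rule. Among genes that rose, both DM+RYGB arrays lay above all 6 sham arrays in 91.5%, against 49.9% of all genes. Among genes that fell, both DM+RYGB arrays lay below all sham arrays in 68.2%, against 11.0% of all genes. At the same time all Control+RYGB arrays lay above all sham arrays for 48.6% of the genes that fell and 34.0% of all genes. Slc4a4 lay outside the sham range on both sides, with sham means of 3.79 and 3.95. Atf3 had sham means of 1.75 for Control+Sham and -0.58 for DM+Sham, so its DM+RYGB level was near that of DM+Sham and its Control+RYGB level was the highest of the 4 groups. Cyp27b1 had sham means of -2.26 for Control+Sham and -3.41 for DM+Sham, with -2.58 in DM+RYGB between them. Its Control+RYGB level, 1.76, was again the highest of the 4 groups. Cxcl10 averaged 0.22 in DM+RYGB, near the 0.23 of DM+Sham, and 4.67 in Control+RYGB. Cxcl11 and Cyp3a2, which fell, lay above all sham arrays in both DM+RYGB arrays. Havcr1, Spp1 and Ccl20, by contrast, lay below all sham arrays there. Of the sham arrays only DM+Sham 3 shared a scan day with RYGB arrays, and these shares use the 75th percentile scaling alone.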

How the data were processed

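Total RNA of rat renal cortex was hybridised, with 1 Cy3-labelled sample per array, to Agilent 4 x 44K arrays. The deposited scanner files hold spot intensity, which Agilent Feature Extraction 11.0.1.1 background-subtracted, per the file headers. A deposited table of log2 values, scaled between arrays by the authors in a way not given in the sources used here, served as an alternative. All its array medians were 7.065, and its direction was that of the scanner values.

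The processed signal was taken as log2 minus each array's 75th percentile over non-control spots. Spots of each of 30367 probes were averaged, and probes kept if 2 or more arrays marked them well above background. Of these 1 probe per gene was used, that with the highest mean, giving 25805 genes. Control+RYGB 2 and 3, and DM+Sham 2 and 3, were merged to 1 sample each, as their spread over bright probes (log2 above -2) lay under the spot noise. Over all probes the spread of Control+RYGB 2 and 3 exceeded it, and this limit was set after seeing the data. limma 3.58.1 (R 4.3.3) was fitted to all 4 groups with Benjamini-Hochberg adjustment over all genes. "At least N-fold" sets the brighter mean against the lowest signal well above background. Alternatives were other scalings, normexp background correction (offset 50), filters, array weights, scan day and replicate number as blocks, and leaving out samples. The scan-day block did not merge DM+Sham 2 and 3. On simulated data for this comparison (25805 genes, 200 changed), 33% of 2-fold and 68% of 4-fold changes were recovered. The simulated noise had 1 spread per gene for all arrays, whereas the spread was 0.39 between the DM+RYGB arrays and at most 0.2 within other groups. Of the unchanged genes 10 were called, a number that does not measure false calls under such unequal spread. These calls left out the median and quantile scalings. They also left out the condition, set for rises and falls, that a RYGB group be well above background on all its arrays.

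Named genes are the 15 rises and 15 falls with the largest change in the weaker array, up to 5 genes per list by adjusted p, all NADPH and AMPK genes, and heart markers. The comparison, members and lists were chosen with earlier results of these data known. Genes without a symbol in the array annotation were tested but are not named, and some list members are not reported here.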

Additional observations from a re-analysis of the deposited data

Results flagged for a closer look

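The effect of diabetes after RYGB minus its effect after sham surgery passed limma's interaction test with 3 scalings for 3747 genes. The 30 genes with the largest rises and falls after RYGB are given here, which were chosen by the RYGB change and so tend to pass. The differences (log2) were positive for Akr1c2 (5.90), Or52e8b (6.58), Reg3b (5.45), Pla2g2a (4.36), Ciart (2.26), Or52e51 (10.86), Gp2 (4.40), Marchf11 (3.57), Tp53i11 (2.83), Ly6g6e (2.97), Dbp (1.81), Clip3 (1.83), Or9q1 (4.20), Pnoc (7.18) and Nr1i3 (1.90). They were negative for Acot5 (-1.76), Fam111a (-5.84), Apcs (-3.40), Slc5a12 (-4.79), Lect2 (-4.59), Slc4a4 (-5.03), Akr1b10 (-3.68), Slc27a5 (-7.09), Fosl1 (-2.15), Slc2a2 (-4.66), Folh1 (-3.51), Cxcl10 (-2.82), Hrg (-4.57), Cyp27b1 (-3.19) and Serpinc1 (-4.63). For Or52e8b, Reg3b, Or52e51, Or9q1 and Fosl1 a RYGB group was not well above background, so these fitted values are no measured size. Among clock and immediate early genes it was Egr2 (-1.74), Atf3 (-0.74), Jund (-7.25), Bmal1 (-2.98), Nr1d1 (1.83) and Npas2 (-1.54). A scan-day block, which has fewer residual degrees of freedom, left 98 genes passing with the 75th percentile, 11 of them from those 30. Slide position differed between RYGB groups and was the same in all sham arrays, so its part cannot be told apart from that of the group.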

How the results depend on the processing

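Of 6656 values recomputed for 247 named genes under up to 27 alternatives, 6321 kept their direction and side of the threshold, 270 no longer passed and 44 newly passed. For the 30 ranked genes this was 795 of 804. With normexp background correction the sign turned for Fosl1 (0.19), Myl11 (0.75), Camkk2 (1.33), Ccna2 (0.34), Bub1 (0.19) and Akr1d1 (1.86), and none of these passed then. Nnt changed by -0.59 without DM+RYGB 2 (adjusted p = 0.0088) and by 0.60 without DM+RYGB 1. Calls with the 75th percentile alone (7859) became 3187 with normexp, 1740 with only the RYGB groups, 4999 with array weights, 3194 with scan day as a block and 3450 with a 2-fold threshold, and ranged from 3608 to 9711 when single samples were left out. Rises (1913) were 3126 with 11 separate arrays, 385 with only the RYGB groups and 574 with scan day as a block, and 699 to 2503 when single samples were left out. Falls (2494) were 706, 1023 and 1155 with only the RYGB groups, scan day and the 2-fold threshold, and 1298 to 3073 when single samples were left out. Without Control+RYGB 1 the 3 counts were 3759, 759 and 1299. Genes passing the interaction (5706) were 1106 with normexp, 9689 with separate arrays, 98 with scan day, and 2356 to 8564 when single samples were left out, with 2716 without Control+RYGB 1 and 2924 without DM+Sham 2 and 3. With the replicate number as a block on separate arrays, 10576 genes passed with the 75th percentile, 2695 rose, 3241 fell and 9236 passed the interaction. The labels do not pair equal numbers, and deviations of same-numbered RYGB arrays correlated at 0.288 and 0.225, over 2 pairs only. The cause of these shifts was not tested. Of 1404 recomputed list medians 38 fell on the other side of the median of all genes. Only 2 samples per RYGB group and signal near background limit dim genes such as Reg3b and the olfactory receptors.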

Other observations

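Of 14 genes of water and urea transport 3 rose and 2 fell. These counts read 4 and 2 without DM+RYGB 2, 1 and 1 without Control+RYGB 1, 1 and 1 without Control+RYGB 2 and 3, and 1 and 1 with scan day as a block. Aqp6, a channel of intercalated cells, read -1.90, -1.74 and -1.69 in Control+RYGB and -0.45 and -0.87 in DM+RYGB, a change of 1.15 ± 0.16 (SE, adjusted p = 0.0032). Aqp5, a water channel of secretory epithelia, changed by 1.17 ± 0.22. Aqp7, the glycerol channel of the late proximal tubule, changed by -1.77 ± 0.49. With that block the adjusted p was 0.051 for Aqp6 and 0.099 for Aqp7. Among 18 genes of polyol and fructose metabolism 1 rose, Akr1c2, and 3 fell. Sord, sorbitol dehydrogenase, read 2.86, 2.73 and 2.72 in Control+RYGB and 1.33 and 0.75 in DM+RYGB, a change of -1.75 ± 0.21 (SE, adjusted p = 0.0018), and Glyctk, a glycerate kinase, changed by -1.69 ± 0.29.

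Among transcription factors of the nephron, Gata3, of the collecting duct and the mesangium, read -3.96, -4.01 and -3.96 in Control+RYGB and -1.93 and -2.61 in DM+RYGB, a change of 1.70 ± 0.22 (SE, adjusted p = 0.0021). Irx2, of the distal nephron, changed by 1.01 ± 0.15, and Maf, of the proximal tubule, by -1.39 ± 0.21. Of 15 mesangial and fibroblast genes 2 rose and 2 fell. Pdgfra, a growth factor receptor of fibroblasts, changed by -1.01 ± 0.14, and Col1a1 by -0.78 ± 0.14, although its other probe changed by 0.41. Among endoplasmic reticulum genes Dnajb9, a co-chaperone, changed by -0.79 ± 0.12, and Calr, calreticulin, by -0.69 ± 0.10. With scan day as a block the adjusted p was 0.052 for Irx2, 0.071 for Col1a1, 0.052 for Dnajb9 and 0.056 for Calr. Of 12 adrenal genes 1 rose and 1 fell, and no fat gene of 11 rose or fell. Of 11 red blood cell genes 1 rose, Slc4a1, which intercalated cells also use, with 1.56, 1.35 and 1.38 in Control+RYGB and 3.04 and 2.26 in DM+RYGB. Of 16 skeletal muscle genes 3 rose and 2 fell.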
